A study of Mus musculus with 10 samples.

Results

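Later-intron peaks are regions of enriched histone mark that the authors' annotation placed inside a gene, in any intron but the first of the assigned transcript. They were chosen by that annotation alone, without use of their signal, and numbered 28503 of 108253 peaks (26.3%). By its size the whole set is the one merged from H3K18La peaks of developing retinas, so regions with H3K27Ac alone may be missing. The data are CUT&Tag libraries, in which an antibody tethers a transposase to chromatin that carries a histone modification, and the fragments cut there are sequenced. Retinas of wild-type C57BL/6J mice at postnatal day 28 were freed of the pigment epithelium and cultured as explants for 48 hours with 5 mM or 25 mM glucose, with no other treatment. Lactylation of histone H3 lysine 18 (H3K18La) was profiled in 3 libraries at each glucose concentration, and acetylation of lysine 27 (H3K27Ac) in 2 at each. The comparisons ask how the marks at these intronic regions differ between low and high glucose, and between the marks. All libraries came from dissociated whole retina, so fewer cells of a type and less mark per cell cannot be told apart, and explants kept 48 hours in medium are a model of the retina without its pigment epithelium or blood supply.

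Introns hold many of the distal regulatory elements of the genome. Enhancers, which are bound by transcription factors and can act on promoters over long distances, carry H3K27Ac when active, and H3K27Ac is also high at active promoters. H3K18La is made from lactyl groups that derive from lactate, the end product of glycolysis, and the retina is known for high aerobic glycolysis in its photoreceptors.

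The later-intron peaks lay in 6171 host genes, of which 2568 held a single peak and 731 held at least 10. Those 731 genes held 53.2% of the peaks. The median peak was 700 bp wide (interquartile range 496 to 1019 bp) and lay 96.6 kb from the start site of its assigned transcript (interquartile range 39.6 to 217 kb). Within 10 kb lay 1501 peaks (5.27%), and 19776 (69.4%) lay over 50 kb from that start site. Intron 2 held 8847 peaks (31.0%), intron 3 held 4925 (17.3%), and 4859 (17.0%) lay in introns above the tenth. The last intron of the transcript held 3812 peaks (13.4%). The midpoint of 6019 peaks (21.1%) also fell in the first intron of another annotated transcript, so for these the class depended on the transcript chosen.

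In base composition the later-intron peaks were near the intergenic and first-intron peaks and away from the promoter peaks. Their median GC content was 48.4%, against 48.5% in intergenic peaks, 48.6% in first-intron peaks and 57.5% in promoter peaks. The ratio of observed to expected CpG was 0.18 in the median later-intron peak, 0.17 in intergenic peaks and 0.60 in promoter peaks. Short motifs were searched on both strands in the central 200 bases. GGGCGG, a box bound by SP family factors, was in 3.14% of later-intron peaks, 35.2% of promoter peaks and 8.74% of all peaks. TAATCC, the core bound by photoreceptor homeobox factors such as CRX, was in 9.08% of later-intron peaks, 4.67% of promoter peaks and 7.89% of all peaks. CAGATG, a neural E-box, was in 19.04% of later-intron, 10.7% of promoter and 17.7% of all peaks. TGCTGA, part of the site bound by Maf family factors, was in 18.1%, 12.6% and 17.2% of the same sets, AGGTCA, the element bound by nuclear receptors, in 15.2%, 10.1% and 14.5%, and CCACTAG, part of the CTCF core, in 2.00%, 1.63% and 1.90%. These shares are descriptions of the letters in the window and not of bound sites.

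The 200 bases around the midpoint of 11 peaks are shown, read from the plus strand of the RefSeq GRCm38.p6 genome. Capitals mark matches to the 6 motifs. The first set holds 2 of the 3 peaks with the highest mean H3K18La over the libraries, whose values are given later. The Med13l window (chr5:118713763-118713962) holds no base masked as repeat and holds TGCTGA, and 41.0% of the Igf2bp2 window (chr16:22132935-22133134) is masked.
Med13l: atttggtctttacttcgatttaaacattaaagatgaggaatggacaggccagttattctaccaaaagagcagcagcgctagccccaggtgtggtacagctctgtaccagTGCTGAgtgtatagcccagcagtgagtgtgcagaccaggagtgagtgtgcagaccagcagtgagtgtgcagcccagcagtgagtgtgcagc
Igf2bp2: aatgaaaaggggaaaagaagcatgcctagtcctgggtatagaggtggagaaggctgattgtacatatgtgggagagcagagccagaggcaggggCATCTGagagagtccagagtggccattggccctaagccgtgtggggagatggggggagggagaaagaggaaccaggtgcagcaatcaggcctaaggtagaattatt

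The next set holds the 3 peaks with the largest H3K18La rise at 25 mM glucose. They are shown because they held few or no H3K18La reads at 5 mM. They lie in Wasf3 (chr5:146429305-146429504), Ankdd1b (chr13:96438232-96438431) and Pik3ap1 (chr19:41333113-41333312). The Wasf3 window holds TGCTGA 3 times on the minus strand, and the Pik3ap1 window holds none of the motifs.
Wasf3: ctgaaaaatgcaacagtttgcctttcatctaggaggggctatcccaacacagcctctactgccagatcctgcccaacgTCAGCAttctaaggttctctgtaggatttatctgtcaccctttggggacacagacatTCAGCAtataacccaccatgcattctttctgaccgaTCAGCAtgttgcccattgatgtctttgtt
Ankdd1b: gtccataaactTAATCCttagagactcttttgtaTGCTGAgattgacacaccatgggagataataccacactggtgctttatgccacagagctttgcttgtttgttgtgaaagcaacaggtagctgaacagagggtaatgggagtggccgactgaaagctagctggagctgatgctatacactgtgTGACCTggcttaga
Pik3ap1: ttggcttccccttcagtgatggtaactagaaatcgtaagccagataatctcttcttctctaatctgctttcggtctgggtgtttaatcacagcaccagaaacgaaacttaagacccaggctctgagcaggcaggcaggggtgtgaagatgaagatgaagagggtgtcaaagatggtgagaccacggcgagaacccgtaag

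The third set holds the 3 peaks with the highest mean H3K27Ac, shown beside the H3K18La set because the strongest peaks of the marks were different ones, in 1190005I06Rik (chr8:120623968-120624167), Poc1b (chr10:99132139-99132338) and Armc1 (chr3:19150825-19151024). None of these windows holds one of the motifs.
1190005I06Rik: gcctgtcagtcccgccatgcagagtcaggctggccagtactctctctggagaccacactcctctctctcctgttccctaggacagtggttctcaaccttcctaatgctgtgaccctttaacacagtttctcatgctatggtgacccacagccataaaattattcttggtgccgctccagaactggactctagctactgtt
Poc1b: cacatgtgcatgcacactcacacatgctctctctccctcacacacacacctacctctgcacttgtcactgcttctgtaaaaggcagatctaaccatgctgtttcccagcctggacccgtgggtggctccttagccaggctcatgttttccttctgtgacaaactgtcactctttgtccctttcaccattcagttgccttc
Armc1: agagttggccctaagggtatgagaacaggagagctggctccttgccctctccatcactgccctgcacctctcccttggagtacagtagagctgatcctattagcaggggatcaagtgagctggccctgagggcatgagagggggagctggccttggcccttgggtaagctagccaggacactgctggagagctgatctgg

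The last set holds the 3 peaks with the largest H3K27Ac rise, shown for comparison with those of H3K18La. They lie in 4933407K13Rik (chrX:75733762-75733961), in Firre (chrX:50602772-50602971), a long noncoding RNA gene that contains repeated sequence, and in Csnk1g1 (chr9:65994489-65994688). The first 2 windows hold GGGCGG on the minus strand.
4933407K13Rik: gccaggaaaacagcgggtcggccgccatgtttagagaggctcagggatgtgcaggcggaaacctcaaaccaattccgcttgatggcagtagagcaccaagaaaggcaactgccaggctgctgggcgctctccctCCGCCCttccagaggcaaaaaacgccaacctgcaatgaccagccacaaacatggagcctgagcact
Firre: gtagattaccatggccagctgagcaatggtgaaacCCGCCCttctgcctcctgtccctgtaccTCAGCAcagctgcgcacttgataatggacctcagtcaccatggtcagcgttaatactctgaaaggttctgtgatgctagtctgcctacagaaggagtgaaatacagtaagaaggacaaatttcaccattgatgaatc
Csnk1g1: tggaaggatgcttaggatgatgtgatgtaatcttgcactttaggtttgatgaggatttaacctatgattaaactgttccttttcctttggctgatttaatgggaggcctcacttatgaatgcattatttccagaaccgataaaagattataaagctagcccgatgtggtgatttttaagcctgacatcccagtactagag

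Depth was low for single peaks. The denominators of the authors' RPKM values (reads scaled to the width of the peak and the reads of the library) were 1358008 to 7424470 reads, and a median of 1 to 5 reads fell in a later-intron peak for H3K18La and 4 to 11 for H3K27Ac. Reads in all peaks made up 11.8% to 12.01% of the denominator for H3K18La at 5 mM and 31.2% to 34.97% at 25 mM, and 21.1% and 31.5% for H3K27Ac at 5 mM against 69.5% and 56.5% at 25 mM. Comparisons between glucose levels and between marks carry this difference, in RPKM, in shares of reads and in contrasts of peak classes. Its part in the results was not tested. The replicates are called biological, but nothing says which came from separate animals or cultures, so p-values measure the spread between these samples, which may be technical. Each mark was profiled with its own antibody, so mark and antibody cannot be told apart. The mark follows the sample titles. The study's methods name an antibody to H3K27Ac and a transposase, whereas the protocol in the labels names one to H3K9me3 and a micrococcal nuclease, and this difference was not resolved. Promoter peaks of all 8 rod and cone markers checked were present, and their summed H3K27Ac signal was 45.5 and 79.1 RPKM at 5 mM and 221 and 404 RPKM at 25 mM. Those of the Mueller glia markers (4 of 4 present) summed to 11.5 and 13.6 RPKM at 5 mM and 26.1 and 32.4 RPKM at 25 mM. Those of the bipolar cell markers (4 of 4) summed to 3.92 and 5.71 RPKM at 5 mM and 17.3 and 30.6 RPKM at 25 mM, and those of the ganglion cell markers (2 of 3) were 0.891 to 1.90 RPKM at 5 mM and 0.808 to 2.09 RPKM at 25 mM. Promoter peaks were present for amacrine and horizontal cell markers in 1 of 4, microglial markers in 1 of 4, markers of vessels and pigment epithelium in 2 of 4, and non-retinal markers in 0 of 3.

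Later-intron peaks held 24.8% to 26.96% of the H3K18La reads that fell in peaks and a smaller share of the H3K27Ac reads. The share was 25.7%, 26.3% and 26.2% in the H3K18La libraries at 5 mM and 24.8%, 26.5% and 26.96% at 25 mM. In the H3K27Ac libraries it was 22.5% and 22.8% at 5 mM and 18.8% and 21.4% at 25 mM. All H3K18La libraries lay above all H3K27Ac libraries. Later-intron peaks were 26.3% of all peaks, and the part of background reads in these shares was not tested. The difference between the marks, averaged over the glucose levels, was 4.71 percentage points (exact two-sided permutation of the mark within glucose levels, p = 0.01, the smallest that the 100 relabellings can give, adjusted p = 0.036 over 18 tests on libraries). With any 1 library left out fewer relabellings exist, and the adjusted p of this and the other mark differences that passed was then 0.06 to 0.09, no longer past the threshold. These permutations treat the libraries of both marks as independent, yet at 25 mM the deviations of both first replicates from their group means had a correlation of 0.229 over peaks. In all 4 pairs of libraries with the same number and glucose level the share was higher in H3K18La, by 3.22 to 6.04 percentage points. Intergenic peaks had the same order, with 24.97% to 28.02% of the H3K18La reads and 14.4% to 17.6% of the H3K27Ac reads. Promoter peaks had the opposite order, with 18.02% to 23.2% of the H3K18La reads and 32.2% to 41.5% of the H3K27Ac reads. The widest 95% Wilson interval of the later-intron share, which covers counting error only, was 26.0% to 26.4% in replicate 3 of H3K18La at 5 mM.

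**Figure D1:**
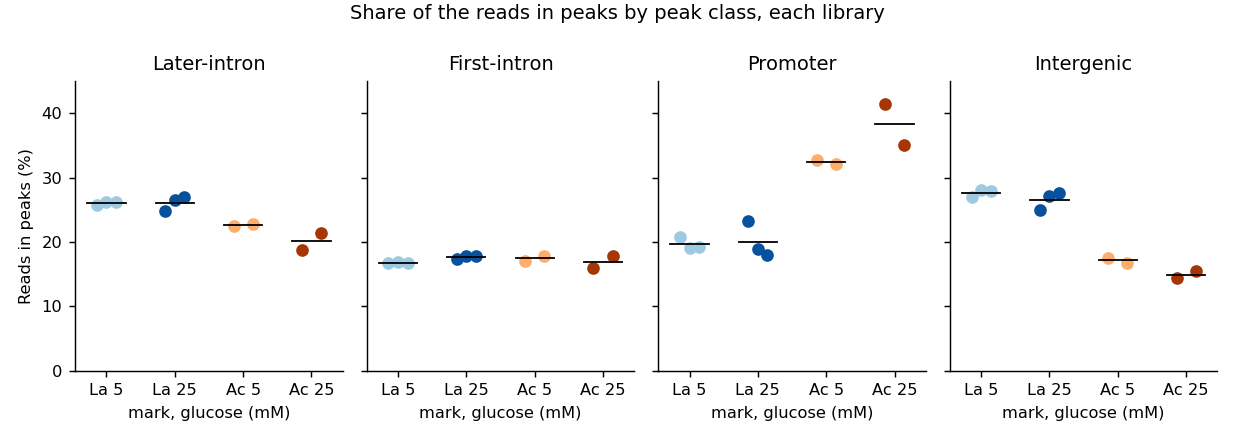
Share of the reads in peaks (y axis, percent) that lay in later-intron, first-intron, promoter and intergenic peaks, for H3K18La (La) and H3K27Ac (Ac) at 5 and 25 mM glucose. Points are libraries and lines are group means. The later-intron share was 24.8% to 26.96% for H3K18La and 18.8% to 22.8% for H3K27Ac.

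No difference in the later-intron share between glucose levels passed the test. For H3K18La the mean share was 26.1% ± 0.325 (SD, n = 3) at 5 mM and 26.1% ± 1.14 (n = 3) at 25 mM (exact two-sided permutation p = 1, where 0.1 is the smallest that 3 against 3 libraries can give). The H3K18La difference of 0.0279 percentage points changed sign without the first replicate at 5 mM (-0.159) and without replicate 2 (-0.188) or 3 (-0.402) at 25 mM. For H3K27Ac it was 22.7% ± 0.249 (n = 2) at 5 mM and 20.1% ± 1.86 (n = 2) at 25 mM. Both H3K27Ac libraries at 25 mM lay below both at 5 mM, and the difference of -2.57 percentage points had an exact permutation p of 0.3333, the smallest that 2 against 2 libraries can give.

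Within a library, the mean log2(RPKM + 0.5) of the later-intron peaks was compared with that of other classes. Because of the added 0.5, the scaling of the library cancels only in part. H3K27Ac at later-intron peaks was below that at promoter peaks, by -0.70 and -0.77 (log2) in the libraries at 5 mM and -1.42 and -1.07 at 25 mM. H3K18La differed less between these classes, with values of -0.10, 0.05 and -0.03 at 5 mM and -0.38, -0.03 and -0.000911 at 25 mM. The difference between the marks was 0.91 (exact permutation p = 0.01, adjusted p = 0.036). Restricted to the 4255 genes that held peaks of both classes, a comparison chosen after the data were seen, it was 0.49 (exact permutation p = 0.01). There H3K18La was below the promoter peaks in all 6 libraries, by -0.28, -0.13 and -0.22 at 5 mM and -0.68, -0.34 and -0.32 at 25 mM.

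The later-intron peaks also differed from the other distal classes by mark. Against intergenic peaks their H3K18La was higher by 0.14 to 0.16 (log2) at 5 mM and by 0.26 to 0.30 at 25 mM, and their H3K27Ac by 0.46 to 0.69. Against first-intron peaks they were lower in every library, by -0.05 to -0.21 for H3K18La and -0.21 to -0.36 for H3K27Ac. The marks differed by -0.39 against intergenic and 0.16 against first-intron peaks (exact permutation p = 0.01 and adjusted p = 0.036 for each). Within the 2591 genes that held both intron classes the second difference was 0.07 (exact permutation p = 0.01). With 0.1 or 1 added in place of 0.5, the mark difference against intergenic peaks was -0.50 or -0.32.

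These contrasts in H3K18La also differed between glucose levels without overlap of the groups. The difference (25 mM minus 5 mM) was -0.11 against first-intron peaks and 0.13 against intergenic peaks, each with an exact permutation p of 0.1, the smallest that 3 against 3 libraries can give (adjusted p = 0.225). The change against intergenic peaks turned to -0.04 when a mean RPKM of at least 1 was required and to -0.13 when peaks were compared within 10 equal bins of their H3K27Ac level. The change against first-intron peaks was -0.08 and -0.01 under the same alternatives. Against promoter peaks the H3K18La difference was -0.11 (exact permutation p = 0.6) and against all other peaks 0.01 (exact permutation p = 0.7), and both changed sign under some alternatives. Within genes that held both classes, again chosen after the data were seen, the difference against promoter peaks was -0.24 without overlap of the groups (exact permutation p = 0.1).

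H3K27Ac at later-intron peaks was lower with distance from the start site, and H3K18La had no such decline out to 200 kb. Mean H3K27Ac at 25 mM was 6.28 ± 0.45 RPKM (SD, n = 2 libraries) in the 1501 later-intron peaks within 10 kb, 4.28 ± 0.17 in the 6095 peaks at 100 to 200 kb and 2.30 ± 0.05 in the 2125 peaks beyond 500 kb. Mean H3K18La at 25 mM was 2.98 ± 0.15 RPKM (n = 3 libraries) within 10 kb, 3.35 ± 0.02 at 100 to 200 kb and 2.27 ± 0.03 beyond 500 kb.

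**Figure D2:**
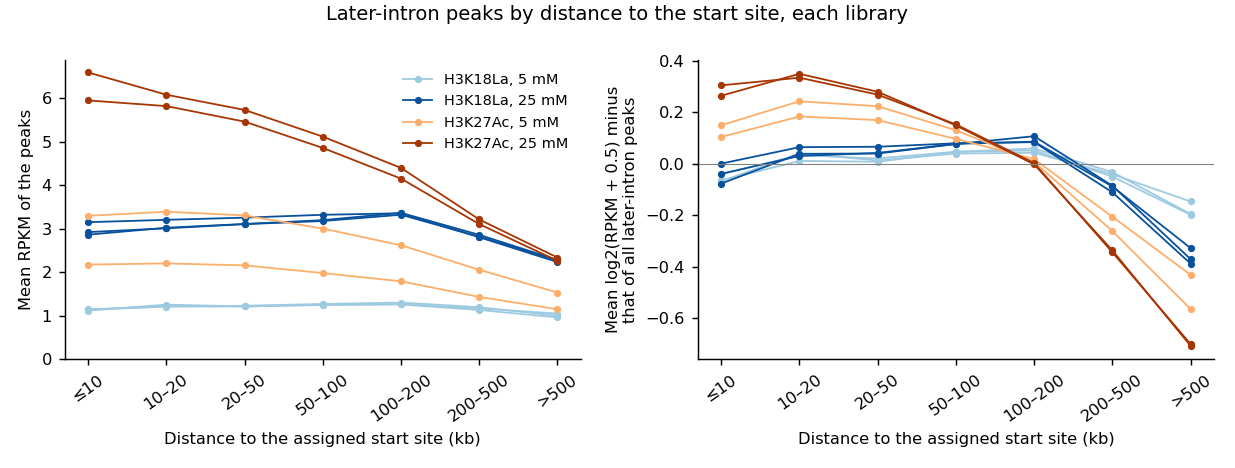
Later-intron peaks by distance (x axis, kb) to the start site of the assigned transcript, one line per library. The left panel gives the mean RPKM and the right panel the mean log2(RPKM + 0.5) minus that of all later-intron peaks in the library. The H3K27Ac lines fall at each step beyond 20 kb, and the H3K18La lines are highest at 100 to 200 kb and fall beyond it.

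The difference of mean log2(RPKM + 0.5) between later-intron peaks within 10 kb and beyond 50 kb gave 1 value per library. For H3K27Ac it was 0.18 and 0.25 at 5 mM and 0.43 and 0.39 at 25 mM. For H3K18La it was -0.04, -0.07 and -0.06 at 5 mM and 0.02, -0.03 and -0.07 at 25 mM. Every H3K27Ac library thus had more signal near the start site, and 5 of the 6 H3K18La libraries had slightly less. The difference between the marks was -0.35 (exact permutation p = 0.01, adjusted p = 0.036). The glucose difference in this contrast was 0.03 for H3K18La (exact permutation p = 0.4), which turned to -0.09 within 10 equal bins of H3K27Ac level, and 0.20 for H3K27Ac (exact permutation p = 0.3333, the smallest possible).

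Levels also differed with the number of the intron. In intron 2, mean H3K18La at 25 mM was 3.34 ± 0.07 RPKM (n = 3) and mean H3K27Ac 5.21 ± 0.25 (n = 2), and in introns 11 to 20 they were 2.69 ± 0.02 and 3.77 ± 0.07. Both marks were thus lower in introns 11 to 20 than in intron 2. The peaks that also lay in a first intron of another transcript had 3.34 ± 0.06 RPKM of H3K18La and 5.56 ± 0.23 of H3K27Ac at 25 mM, and the other 22484 peaks had 3.00 ± 0.04 and 4.24 ± 0.15.

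Over all later-intron peaks at 25 mM, the levels of the marks had a Spearman correlation of 0.76, against 0.63 over promoter peaks, 0.78 over first-intron peaks and 0.79 over intergenic peaks. Of the 1000 later-intron peaks highest in H3K18La, 51.3% were among the 1000 highest in H3K27Ac, against 60.6% for first-intron, 53.5% for intergenic and 47.1% for promoter peaks. These are descriptions over peaks, which share libraries and base composition.

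On the RPKM scale, H3K18La at later-intron peaks was higher at 25 mM glucose. Their mean was 1.19, 1.23 and 1.21 RPKM at 5 mM and 3.12, 3.03 and 3.06 RPKM at 25 mM, a ratio of 2.53. Of the 28503 peaks, 17628 passed a filter of a mean RPKM of 1 in the H3K18La libraries, and 6686 of these (37.9%) changed at an adjusted p under 0.05 by limma on log2(RPKM + 0.5), which understates the change of weak peaks, 6674 of them upward and 12 downward. Over all classes 37.4% of 65614 peaks passed the same test (37.3% upward), so the later-intron share was near the background. With no minimum RPKM 5025 of 28503 later-intron peaks (17.6%) and 17.0% of all peaks passed. The median log2 fold change of the tested later-intron peaks was 1.10, and that of all tested peaks was also 1.10. First-intron peaks had a median of 1.19, promoter peaks 1.06 and intergenic peaks 1.08. The called count was 4337 without the second replicate at 25 mM, and between 4675 and 6717 without any other library. With no minimum RPKM the median log2 fold change was 0.77 for later-intron peaks and 0.76 for all peaks.

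H3K27Ac was also higher at 25 mM. Their mean was 1.83 and 2.73 RPKM at 5 mM and 4.64 and 4.40 RPKM at 25 mM, a ratio of 1.98. Of 19810 tested later-intron peaks 5164 (26.1%) passed the threshold, 5124 upward and 40 downward, against 34.1% of all 72442 tested peaks (33.9% upward), 57.1% of promoter peaks and 25.8% of intergenic peaks. With no minimum RPKM 0 of 28503 later-intron peaks passed by limma, with 6733 at an unadjusted p under 0.05. The minimum was chosen with this known, so the H3K27Ac calls here and in what follows depend on that choice. The median log2 fold change was 0.72, which was -0.12 relative to all tested peaks (0.84), while promoter peaks had 1.22 and intergenic peaks 0.67. With no minimum RPKM the median was 0.54 for later-intron peaks and 0.58 for all peaks. The counts of calls made with the minimum rested on single libraries. Without the first replicate at 25 mM 1 later-intron peak passed, without the second 167 did, without the first replicate at 5 mM 2949 did, and without the second 9416 did. The median log2 fold change was 0.75 and 0.73 in the first 2 of these fits and 0.50 and 0.94 in the others. After each library was centred on its median peak, 181 passed, 138 upward and 43 downward. Over libraries, the H3K27Ac contrast of later-intron peaks with all other peaks differed between glucose levels by -0.07 (log2, exact permutation p = 0.3333, the smallest that 2 against 2 libraries can give, adjusted p = 0.429), and by -0.51 against promoter peaks and 0.17 against intergenic peaks with the same p. The first ran from -0.122 to -0.0254 without 1 library.

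**Figure D3:**
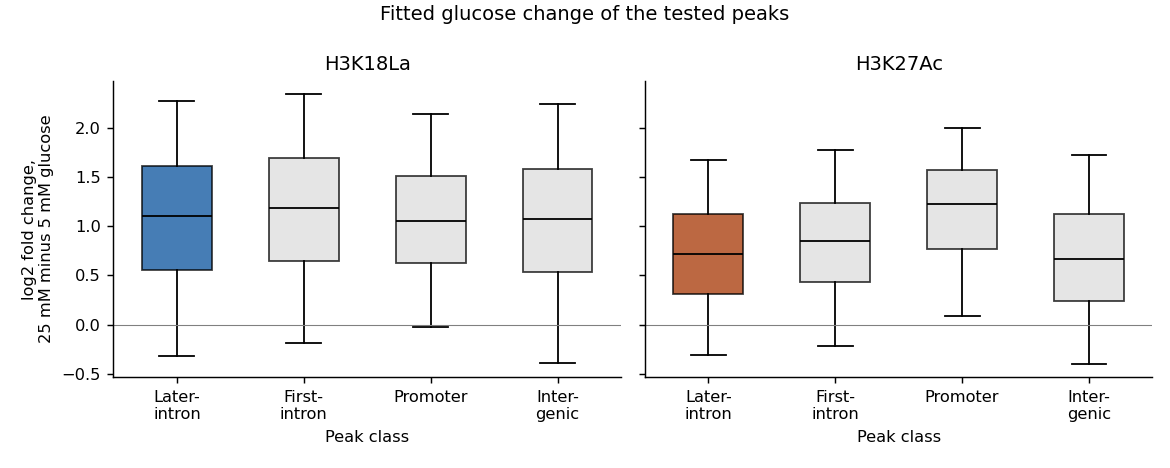
Fitted log2 fold change (25 mM minus 5 mM glucose, y axis) of the tested peaks by class, for H3K18La and H3K27Ac. Boxes give the median and quartiles and whiskers the 5th and 95th percentiles over peaks. The later-intron medians are 1.10 for H3K18La and 0.72 for H3K27Ac, and the promoter medians are 1.06 and 1.22.

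The glucose change depended on the scale. With each library scaled to its reads in peaks, the median change of all tested peaks moved from 1.10 to 0.03 for H3K18La and from 0.84 to -0.22 for H3K27Ac, and that of the later-intron peaks to 0.03 and -0.33. By limma 0 later-intron peaks passed the threshold for either mark on that scale, with 2177 of 17628 and 3545 of 19810 at an unadjusted p under 0.05. With each library centred on its median peak, 314 later-intron peaks passed for H3K18La, 307 upward and 7 downward. The changes given in what follows are on the scale of the deposited RPKM values, and the rises named were not called once libraries were scaled to reads in peaks.

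The glucose change was also compared between the marks. In a limma fit over the 10 libraries 0 of 19472 later-intron peaks passed for the glucose by mark interaction (0% of all 72467 peaks), and 915 (4.70%) had an unadjusted p under 0.05. The median difference of the log2 fold changes, H3K18La minus H3K27Ac, was 0.34 for later-intron peaks, 0.43 for intergenic, 0.30 for first-intron and -0.18 for promoter peaks. Of the 15598 later-intron peaks tested in both marks, 3060 were called higher in both, which was 46.7% of the H3K18La calls and 66.1% of the H3K27Ac calls. Over all 57421 peaks tested in both marks the shares of calls shared were 52.8% and 58.9%, and over intergenic peaks 44.5% and 70.2%, whereas over promoter peaks they were 73.2% and 41.5%. These shares depend on how many peaks were called. Among peaks tested in both marks, 42.0% of later-intron peaks were called in H3K18La and 29.7% in H3K27Ac. The rates were 34.3% and 60.6% for promoter peaks and 41.7% and 37.4% over all. The overlap itself was not tested.

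The later-intron peaks with the most H3K18La had the mark at both glucose levels. The strongest lay in intron 3 of Myof, which encodes the membrane repair protein myoferlin, with 17.5, 16.3 and 19.2 RPKM at 5 mM and 47.5, 44.3 and 39.5 RPKM at 25 mM. In intron 4 of Med13l, a subunit gene of the Mediator kinase module, the values were 10.2, 10.48 and 11.2 RPKM at 5 mM and 48.4, 42.4 and 42.5 RPKM at 25 mM. In intron 2 of Igf2bp2, an RNA-binding protein gene, they were 16.7, 11.5 and 15.5 RPKM at 5 mM and 27.7, 40.2 and 45.03 RPKM at 25 mM. The groups did not overlap at any of the 3 peaks. The log2 fold changes were 1.28 ± 0.14 (SE, adjusted p = 0.000352) for Myof, 2.01 ± 0.15 (adjusted p = 0.000352) for Med13l and 1.33 ± 0.21 (adjusted p = 0.00104) for Igf2bp2. The next were in Adamts3, a procollagen protease gene, and Chd7, a chromatin remodeller gene, with means of 40.3 and 39.0 RPKM at 25 mM. Of the Myof peak 88.1% of the bases were masked as repeats, and reads there may be shared with near-identical copies. Of the 20 later-intron peaks with the most H3K18La 2 (10.0%) were masked over more than 50% of their length, and of the first 100 peaks 3 were, against 5.16% of all later-intron peaks.

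The 5 later-intron peaks with the most H3K27Ac were other ones, and 4 of them (all but Armc1) also lie in a first intron of another transcript, as do the Igf2bp2 and Chd7 peaks. In intron 2 of 1190005I06Rik the values were 27.1 and 35.4 RPKM at 5 mM and 88.2 and 73.1 RPKM at 25 mM. In intron 4 of Poc1b, which encodes a centriole and ciliary protein linked to cone-rod dystrophy, they were 24.8 and 36.8 RPKM at 5 mM and 85.4 and 76.0 RPKM at 25 mM. In intron 2 of Armc1 they were 18.99 and 38.7 RPKM at 5 mM and 82.8 and 71.4 RPKM at 25 mM. Each peak was higher in both libraries at 25 mM, with log2 fold changes of 1.36 ± 0.57 (SE, adjusted p = 0.0492), 1.40 ± 0.57 (adjusted p = 0.043) and 1.49 ± 0.56 (adjusted p = 0.0313). Their calls share the dependence on single libraries given above. Next came intron 2 of Plch2, a phospholipase C gene, and intron 2 of Ppargc1b, a coactivator gene of mitochondrial metabolism. Ppargc1b had 8.52 and 23.7 RPKM at 5 mM and 112 and 52.6 RPKM at 25 mM, with a wide spread within each group.

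**Figure D4:**
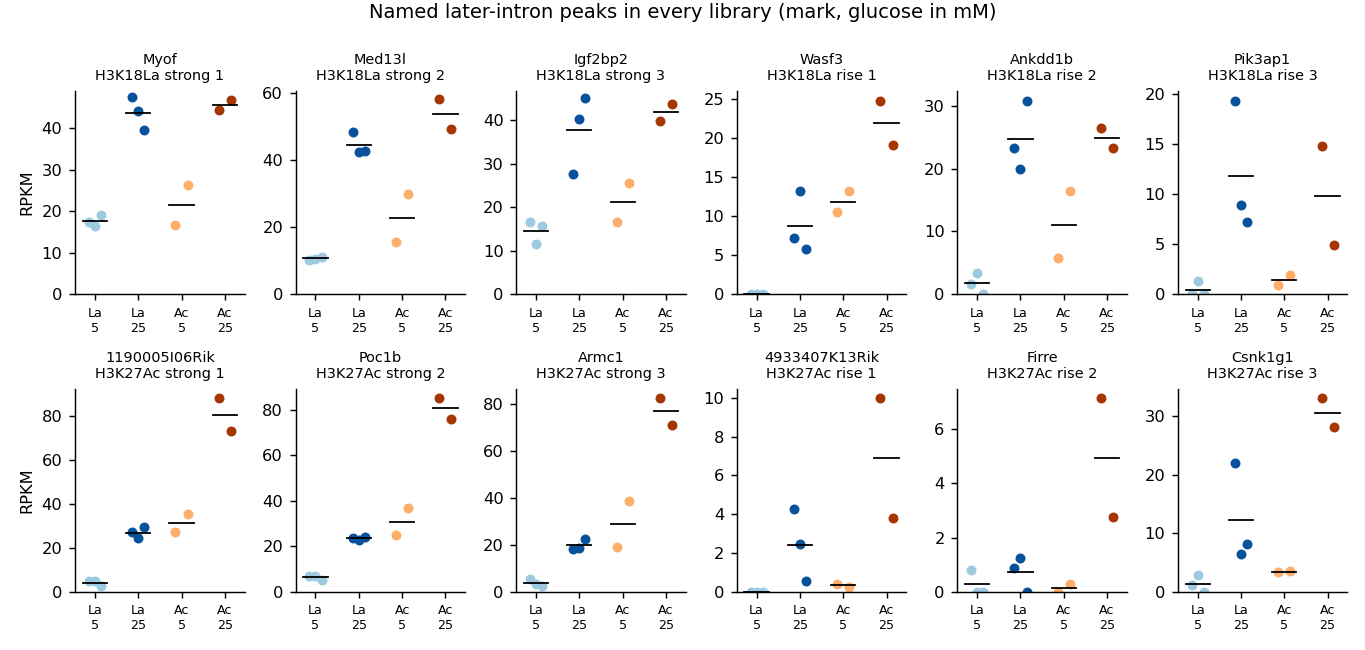
RPKM (y axis) in every library of 12 later-intron peaks, for H3K18La (La) and H3K27Ac (Ac) at 5 and 25 mM glucose. Each panel names the host gene and whether the peak is among the 3 strongest or the 3 largest rises of a mark. Points are libraries and lines are group means. The Wasf3 peak held no H3K18La read at 5 mM while it had 10.48 and 13.2 RPKM of H3K27Ac there.

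The largest H3K18La rises were at peaks with few or no reads at 5 mM. The peak in intron 2 of Wasf3, an actin regulator gene, held 0 reads in each library at 5 mM and 5, 19 and 6 reads at 25 mM, which was at least 9.61-fold higher with 3 reads allowed over the group at 0 (adjusted p = 0.000352). The peak in intron 8 of Ankdd1b had 1.67, 3.397 and 0 RPKM at 5 mM and 23.3, 19.9 and 30.9 RPKM at 25 mM (log2 fold change 3.94 ± 0.59, adjusted p = 0.000833). That in intron 2 of Pik3ap1, an adaptor of phosphoinositide 3-kinase, had 0, 1.318 and 0 RPKM at 5 mM and 19.4, 8.88 and 7.24 RPKM at 25 mM (log2 fold change 3.88 ± 0.56, adjusted p = 0.00072). The rule that named these peaks required groups without overlap. All but Ankdd1b of the 5 peaks reached the minimum RPKM only through their libraries at 25 mM, and all 5 also passed the threshold with no minimum. The next peaks were in intron 3 of Lca5, which encodes the ciliary protein lebercilin, and in intron 5 of Jag1, which encodes a Notch ligand. The Lca5 peak had 1.49, 0 and 0 RPKM at 5 mM and 6.40, 14.7 and 13.8 RPKM at 25 mM, and the Jag1 peak 0, 0.63 and 0 RPKM at 5 mM and 4.97, 9.61 and 14.3 RPKM at 25 mM. At the same 2 peaks H3K27Ac was already 7.27 and 14.7 RPKM and 10.55 and 12.6 RPKM at 5 mM. The Ankdd1b peak had 5.70 and 16.4 RPKM of H3K27Ac at 5 mM and 26.4 and 23.2 RPKM at 25 mM, whereas the Pik3ap1 peak had little at 5 mM, with 0.90 and 1.89 RPKM against 14.8 and 4.86 RPKM. The interaction at these 5 peaks was not past the threshold (adjusted p = 0.903 for each).

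The largest H3K27Ac rises were at peaks with low signal at 5 mM, and at 4 of the 5 the first replicate at 25 mM was well above the second. The peak in intron 2 of 4933407K13Rik held 1 and 1 reads at 5 mM and 43 and 17 at 25 mM, and that in intron 4 of Firre 0 and 1 reads against 30 and 12. Both lie on chromosome X, which held 249 later-intron peaks, and Firre contains near-identical repeats, so its reads are uncertain. The peak in intron 5 of Csnk1g1, a casein kinase gene, had 3.34 and 3.48 RPKM at 5 mM and 33.1 and 28.2 RPKM at 25 mM (log2 fold change 2.99 ± 0.49, adjusted p = 1.89e-06). The peaks in Zbtb7c, a zinc finger gene, and Bcl3, an inhibitor of NF-kappaB family gene, had 36.5 and 15.2 RPKM and 67.2 and 23.5 RPKM at 25 mM, against 1.49 and 4.16 RPKM and 4.09 and 5.51 RPKM at 5 mM. None of these 5 calls held without the first replicate at 25 mM (log2 fold changes 2.19 to 2.87, adjusted p of 0.166 to 0.415) or with no minimum RPKM (adjusted p = 0.1248 for each). The Bcl3 peak also lies in a first intron of another transcript.

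The falls rested on few reads. For H3K18La the largest was in the last intron of 9130015L21Rik, with 5, 2 and 1 reads at 5 mM and 0 reads in each library at 25 mM, at least 2.77-fold lower with 3 reads allowed over the group at 0 (adjusted p = 0.0271). The peak in Nrxn2, a presynaptic adhesion gene, held 5, 4 and 2 reads at 5 mM and 0, 0 and 1 at 25 mM. Peaks in Trim30a (1, 3 and 2 reads), Htr4 (2, 2 and 2) and Dpp10 (1, 4 and 4) also held 0 reads in each library at 25 mM. Each of these calls was lost without at least 1 library, that of 9130015L21Rik without replicate 3 at 5 mM (adjusted p = 0.0983) and that of Nrxn2 without replicate 1 at 5 mM (adjusted p = 0.0941). Those of Trim30a, Htr4 and Dpp10 were lost without replicate 2 or 3 at 25 mM (adjusted p from 0.0512 to 0.0742), and Trim30a and Dpp10 also without replicate 1 or 2 at 5 mM (adjusted p from 0.0657 to 0.0932). That of Dpp10 was lost without replicate 1 at 25 mM too (adjusted p = 0.0666), and also with no minimum RPKM (adjusted p = 0.0505). All 5 peaks reached the minimum only through their libraries at 5 mM. For H3K27Ac the peaks in Ctnna2, a neuronal catenin gene, and Tgfbr3, a coreceptor gene, held 6 and 4 reads and 4 and 6 reads at 5 mM against 1 and 0 at 25 mM for each. The peaks in Ttc21b, Pde4dip and Lrrc20 also held at most 9 reads in any library of either mark, and all 5 H3K27Ac calls were lost without either replicate at 25 mM (adjusted p from 0.0569 to 0.415) and with no minimum RPKM (adjusted p from 0.1248 to 0.1262). These peaks too reached the minimum only through 5 mM.

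Summing the reads of all later-intron peaks of a gene raised the depth. For H3K18La 2086 of 3610 tested host genes (57.8%) passed the threshold, 2078 upward, with a median log2 fold change of 1.00. For H3K27Ac 1538 of 4381 (35.1%) passed, 1524 upward, with a median of 0.74. Without the first or the second H3K27Ac replicate at 25 mM 4 and 31 host genes passed, without the first or the second at 5 mM 921 and 2556. Among host genes with at least 3 later-intron peaks 1342 of 1826 passed for H3K18La and 669 of 1952 for H3K27Ac, all of them upward.

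The largest H3K18La rise per host gene was in Pik3ap1, whose 8 later-intron peaks together had 0.76, 1.59 and 0.30 RPKM at 5 mM and 8.88, 5.72 and 6.76 RPKM at 25 mM (log2 fold change 2.55 ± 0.36, adjusted p = 0.00133). Ankdd1b, with 7 peaks, had 1.20, 2.06 and 0.94 RPKM against 8.52, 8.68 and 11.04 RPKM. Of their peaks 7 of 8 and 6 of 7 reached the minimum RPKM, which favours peaks high at 25 mM, and these were higher there. Pbld2 and Senp7, a SUMO protease gene, followed with log2 fold changes of 2.40 ± 0.29 and 2.36 ± 0.25. Pik3ap1 and Senp7 reached the minimum only through 25 mM (means of 0.881 and 0.825 RPKM at 5 mM), and all 4 genes also passed with no minimum. For H3K27Ac the largest were Firre and 4933407K13Rik, then Casz1, R3hcc1l and Ccn4, a matricellular protein gene. Firre and 4933407K13Rik reached the minimum only through 25 mM (means of 0.234 and 0.58 RPKM at 5 mM), and with no minimum none of these 5 H3K27Ac calls held (adjusted p = 0.116 for each).

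Casz1, which encodes a zinc finger factor with a role in the fate of retinal progenitors and rods, had later-intron peaks that rose together. Its 20 later-intron peaks together had 4.51 and 7.99 RPKM of H3K27Ac at 5 mM and 33.0 and 21.5 RPKM at 25 mM, and all 20 passed the threshold. H3K18La there was 2.23, 1.82 and 2.09 RPKM at 5 mM and 14.1, 8.86 and 8.52 RPKM at 25 mM, with 18 of 20 peaks past the threshold. The log2 fold changes of the gene were 2.06 ± 0.49 (adjusted p = 0.0012) for H3K27Ac and 2.08 ± 0.21 (adjusted p = 0.0004) for H3K18La. Without the first or the second replicate at 25 mM the H3K27Ac call was lost (log2 fold changes 1.75 and 2.36, adjusted p = 0.498 and 0.316), as were those of R3hcc1l and Ccn4.

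The genes with the most later-intron peaks held at least 80 each. Cdh4, the gene of R-cadherin, held 118, Wwox 108, Camta1, a calmodulin-binding transcription activator gene, 106, Prkce, the gene of protein kinase C epsilon, 100, and Trappc9, a vesicle transport gene, 80, as did Pcdh15, described with the outer segment genes. Cdh4 had 2.24, 2.42 and 2.42 RPKM of H3K18La at 5 mM and 6.50, 6.87 and 7.24 RPKM at 25 mM, and 60 of its 116 tested peaks rose. Its H3K27Ac was 2.27 and 3.81 RPKM at 5 mM and 6.42 and 5.75 RPKM at 25 mM, with 26 of 116 peaks past the threshold. Wwox had the weakest change of these 6 genes in both marks, with log2 fold changes of 1.05 ± 0.14 (adjusted p = 0.0011) for H3K18La and 0.58 ± 0.33 (adjusted p = 0.136) for H3K27Ac.

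Most tested later-intron peaks of photoreceptor transcription factor and phototransduction genes rose in both marks. In 14 genes of a list of photoreceptor transcription factors, 80 of 116 tested peaks (69.0%) rose in H3K18La and 68 of 124 (54.8%) in H3K27Ac, none fell, and the median log2 fold changes were 1.75 and 1.20. Casz1 held 18 of the H3K18La rises and 20 of the H3K27Ac rises, and Esrrb held 14 and 15. In 20 phototransduction genes 42 of 72 peaks (58.3%) rose in H3K18La, with a median of 1.53, and in H3K27Ac 48 of 83 rose and 1 fell, with a median of 1.16. Glycolysis, lactate and pyruvate genes had few such peaks, in 11 of the 37 listed genes, of which 13 of 23 rose in H3K18La and 14 of 28 in H3K27Ac (medians 1.33 and 1.11). Hk1 alone held 9 of these rises in each mark. The corresponding values over all tested later-intron peaks were 37.9% and a median of 1.10 for H3K18La and 26.1% and 0.72 for H3K27Ac. These are counts of peaks that share genes, set beside the background with no test of the lists. The H3K27Ac counts depend on single libraries and on the minimum RPKM, as given above. The summed promoter signal of rod and cone, bipolar cell and Mueller glia markers given above was also higher at 25 mM, and its part in these values was not tested.

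**Figure D5:**
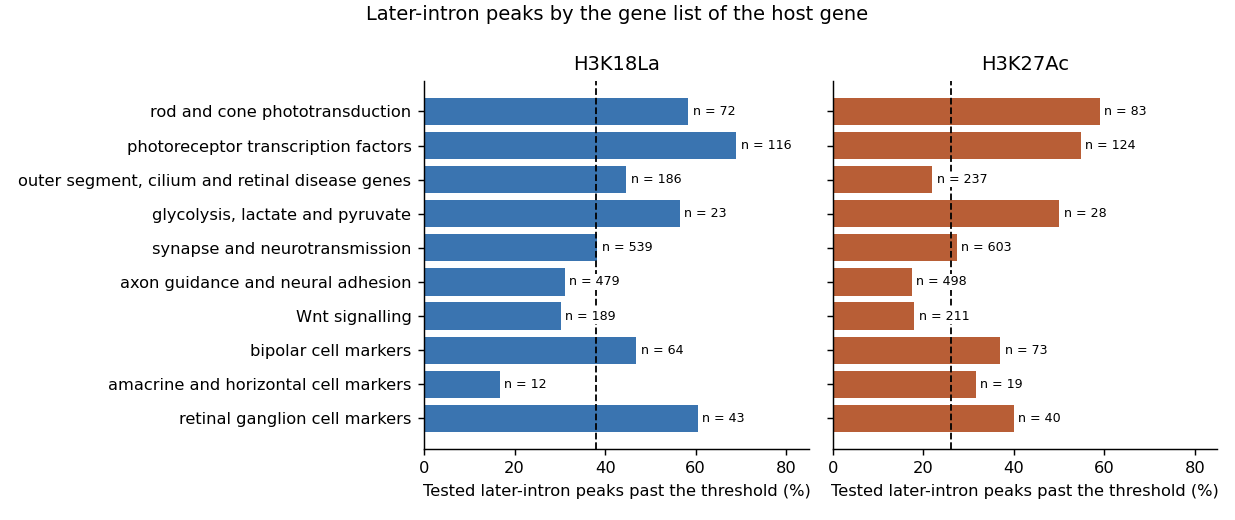
Share of the tested later-intron peaks past the threshold (x axis, percent) by the gene list of the host gene, for H3K18La and H3K27Ac. The dashed line is the share over all tested later-intron peaks (37.9% and 26.1%), n is the number of tested peaks, and lists with fewer than 10 tested H3K18La peaks are left out. Photoreceptor transcription factors, phototransduction, glycolysis, synapse genes and bipolar and ganglion cell markers lie to the right of the line in both marks, and axon guidance and Wnt signalling to the left. The outer segment list lies to the right in H3K18La (44.6%) and to the left in H3K27Ac (21.9%).

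Among the photoreceptor factors, Esrrb, an orphan nuclear receptor gene used by rods, had 15 later-intron peaks with 1.87, 1.98 and 1.85 RPKM of H3K18La at 5 mM and 14.4, 9.99 and 9.29 RPKM at 25 mM, and 14 of 15 rose. Its H3K27Ac was 4.67 and 8.02 RPKM against 30.4 and 22.3 RPKM, and all 15 peaks rose. Meis1, a homeobox gene, rose less, from 2.09, 2.07 and 1.95 RPKM of H3K18La to 8.12, 7.23 and 7.74 RPKM (log2 fold change 1.69 ± 0.12, adjusted p = 0.000274), and 13 of its 20 peaks passed. In the phototransduction list Gnb5, whose product acts in the recovery from light, had 3 of 3 peaks higher in H3K18La and 3 of 4 in H3K27Ac.

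Hk1, the gene of the hexokinase that opens glycolysis in neurons, held 10 of the 29 later-intron peaks of the glycolysis list. These peaks had 2.99, 2.64 and 3.38 RPKM of H3K18La at 5 mM and 14.6, 10.4 and 10.2 RPKM at 25 mM, and 7.65 and 13.1 RPKM of H3K27Ac against 39.2 and 28.4 RPKM. In each mark 9 of 10 peaks rose, and the log2 fold changes of the gene were 1.79 ± 0.18 (adjusted p = 0.000377) and 1.69 ± 0.51 (adjusted p = 0.00958). The 2 later-intron peaks of Slc2a1, the glucose transporter gene, rose by 1.25 ± 0.14 and 1.27 ± 0.51 (log2, adjusted p = 0.000541 and 0.0401), and the 3 of Hk2, another hexokinase gene, by 1.08 ± 0.24 and 1.08 ± 0.43 (adjusted p = 0.00842 and 0.0398).

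Larger lists of neuronal genes were closer to the values over all later-intron peaks (37.9% called in H3K18La and 26.1% in H3K27Ac). Synapse and neurotransmission genes, with 939 later-intron peaks in 61 genes, had 205 higher and 1 lower of 539 tested in H3K18La and 165 of 603 higher in H3K27Ac. Within them Dscaml1, an adhesion molecule gene, had 63 of 67 peaks higher in H3K18La and 55 of 71 in H3K27Ac. Axon guidance and neural adhesion genes had 149 of 479 higher in H3K18La, and 85 higher and 2 lower of 498 in H3K27Ac. Wnt signalling genes had 57 of 189 and 38 of 211 higher. Outer segment, cilium and retinal disease genes had 83 of 186 higher in H3K18La, and 51 higher and 1 lower of 237 in H3K27Ac. Pcdh15, an Usher syndrome gene, held 80 of those peaks, with 44 of 73 and 20 of 74 higher.

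Marker genes of other retinal cells had few later-intron peaks, apart from bipolar and ganglion cell markers. Over all tested later-intron peaks 37.9% were called in H3K18La and 26.1% in H3K27Ac. Bipolar cell markers had 30 of 64 peaks higher in H3K18La and 27 of 73 in H3K27Ac. Prkca, the rod bipolar protein kinase C gene, held 28 and 20 of these. Ganglion cell markers had 26 of 43 higher in H3K18La, and 15 higher and 1 lower of 40 in H3K27Ac. Their leading gene was Ebf3, which held 18 of the H3K18La rises and 8 of the H3K27Ac rises. Ebf3 had 3.34, 3.11 and 3.58 RPKM of H3K18La at 5 mM and 12.2, 12.1 and 12.02 RPKM at 25 mM. Mueller glia markers had 2 of 9 and 3 of 9 peaks higher, and Dkk3 there had 1.60, 1.63 and 3.94 RPKM of H3K18La at 5 mM against 1.86, 2.56 and 1.71 RPKM (log2 fold change -0.10 ± 0.33, adjusted p = 0.792). Amacrine and horizontal cell markers had 2 of 12 and 6 of 19 higher, with Meis2, a homeobox gene, at 0.74 ± 0.24 (log2, adjusted p = 0.035) in H3K18La, a call that was lost without any single H3K18La library. Microglial and immune markers had 0 of 4 and 0 of 5, with Cx3cr1 at 0.64 ± 0.63 (log2, adjusted p = 0.403) in H3K18La, which was 1.36 (adjusted p = 0.0363) without replicate 3 at 5 mM. Markers of vessels, pericytes and pigment epithelium had 1 of 4 and 1 of 7, with Pecam1 at 0.82 ± 0.37 (log2, adjusted p = 0.0972). The non-retinal list had a single later-intron peak, in the muscle creatine kinase gene Ckm, which rose by 1.93 ± 0.22 in H3K18La and 1.91 ± 0.49 in H3K27Ac.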

How the data were processed

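H3K18La and H3K27Ac CUT&Tag was carried out by the authors on cultured mouse retinas. Per the labels and the study's methods, reads were processed with nf-core/cutandrun against GRCm38, peaks were called with MACS and merged, annotated with ChIPseeker 1.34.1, and counted per library. The deposited values are RPKM per peak, computed by the authors with edgeR 3.40.2. A separate deposited table holds the authors' log2 fold changes and p-values for H3K18La and was not used. The sources describe 1 peak set merged from H3K18La peaks of developing retinas and another merged over both marks of the explants. The 108253 peaks here equal in number the first, so regions with H3K27Ac alone, or with a peak in the explants only, may be missing.

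All values came out as whole reads (100% within a tolerance of 0.02), from which denominators were recovered; whether these include a further normalization factor is not given in the sources used here. Depth was 1358008 to 7424470 reads. There were no molecular identifiers, so 95% Wilson intervals cover counting error only. Peaks or host genes with a mean RPKM of at least 1 were tested on log2(RPKM + 0.5) with limma 3.58.1 (R 4.3.3) over all peaks, with Benjamini-Hochberg adjustment and a threshold of 0.05, each mark alone. This filter was chosen with it known that an unfiltered fit makes no H3K27Ac calls, so those calls depend on the choice. Per-library values were compared by exact permutation tests (Python 3.11.15, numpy 2.4.6, pandas 2.3.3, scipy 1.17.1) in 1 family of 18. Fits were tested on simulated data. Sequence was read from RefSeq GRCm38.p6 with pysam 0.24.0, and introns were matched to GENCODE M21 (32058 transcripts shared, 99.7% with the same coordinates).

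Named were, per mark, the 5 largest rises and falls past the threshold without overlap of the groups, the 5 strongest peaks, the 5 largest host gene rises and falls past the threshold among genes with at least 3 peaks (no gene fell), the 5 hosts with most peaks, and the leading host genes of each of 14 gene lists. Members, lists and tests were chosen with earlier results of these data known. The samples carry 1 batch label. Alternatives were other pseudocounts, filters, scalings, thresholds and fits, the replicate number as a block, leaving out each library, comparisons within bins of the other mark or of width, and, chosen after seeing the data, comparisons within genes that hold both classes of peak. Some items that the naming rule selects are not reported here.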

Additional observations from a re-analysis of the deposited data

How the results depend on the processing

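For H3K18La, 6686 later-intron peaks passed in the main test, against 0 with libraries scaled to reads in peaks (2177 at an unadjusted p under 0.05), 314 centred on the median peak, 2421 centred on the weakest 10% of peaks and 3506 at a threshold of 0.01, and 4337 to 6717 with 1 library left out. For H3K27Ac, 5164 passed, against 0 with no minimum RPKM (6733 unadjusted), 0 scaled to reads in peaks (3545 unadjusted), 181 centred on the median, 2151 centred on the weakest 10%, 1420 with all 10 libraries in one fit, 1699 at 0.01, and 1 to 9416 with 1 library left out. Host genes went from 2086 to 0 (646 unadjusted), 398 and 1377 for H3K18La under scaling to reads in peaks, median centring and the threshold of 0.01, with 1637 to 2008 without 1 library. For H3K27Ac they went from 1538 to 0 with no minimum RPKM (2045 unadjusted), 0 scaled to reads in peaks (876), 0 centred on the median (955) and 419 at 0.01, with 4 to 2556 without 1 library. A library left alone in its arm was assumed to vary like the others. The cause of these shifts was not tested. Scaled to reads in peaks, median log2 fold changes turned to -0.33 for H3K27Ac peaks, -0.0934 for H3K18La host genes and -0.32 for H3K27Ac host genes. The interaction had 0 calls under every alternative run, with 687 to 1262 later-intron peaks at an unadjusted p under 0.05.

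With the replicate number as a block, 6559 H3K18La and 1678 H3K27Ac peaks and 1967 and 839 host genes passed, and 0 for the interaction. Same-numbered libraries had correlations of 0.00757 to 0.0307 for H3K18La and 0.0211 for H3K27Ac. Depth was low for single peaks, so values this low cannot tell whether libraries within a mark were paired. Between the marks, a check chosen after seeing the data, same-numbered libraries had correlations of -0.0178 and -0.0054 at 5 mM and 0.229 and 0.0854 at 25 mM, so independence at 25 mM was not shown, and the 4 same-numbered pairs had the same direction in each mark difference.

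Most H3K18La glucose differences between library values changed sign under an alternative run, and that against first-intron peaks did not (-0.14 to -0.00952). On peaks that averaged 1 RPKM or more, the later-intron share difference was -0.0685 percentage points and the contrasts (log2) were 0.0388 against promoter, -0.0374 against intergenic and -0.0075 against all other peaks. Within 10 equal bins of the other mark they were 0.15 against promoter, -0.13 against intergenic and -0.0861 near against far, and within bins of width 0.00945 against promoter peaks. Without 1 library the share difference ran from -0.402 to 0.674, the promoter contrast from -0.179 to 0.00885 and the contrast against all others from -0.00313 to 0.043. The mark difference against all other peaks (0.09, p = 0.02, exact permutation, adjusted p = 0.06) was 0.0655 (p = 0.13, exact permutation) with a pseudocount of 0.1 and 0.0678 to 0.116 without 1 library. The other mark differences kept their direction in the alternatives run. Their exact permutation p was 0.01 except without 1 library, where it was 0.0167 or 0.025, the smallest possible there, and 0.06 to 0.09 adjusted over the 18 tests (chosen after seeing the data), no longer past the threshold.

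Of 720 recomputed values of 55 named results, 572 kept direction and side of the threshold, 137 were no longer past it, 1 newly passed (Cx3cr1, 1.36 without replicate 3 at 5 mM) and 10 changed sign. Scaled to reads in peaks, H3K18La log2 fold changes were -0.0915 for Wwox, -0.0593 for Slc2a1, -0.056 for Hk2, -0.25 for Meis2, -0.32 for Cx3cr1 and -0.12 for Pecam1. Centred on the median they were -0.12 for Meis2, -0.23 for Cx3cr1 and -0.0476 for Pecam1, and that of the Dkk3 host gene, H3K18La, ran from -0.288 to 0.25 without 1 library, the highest without replicate 3 at 5 mM.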
